A study of Homo sapiens with 15 samples.

Results

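Alpha-fetoprotein, albumin, transthyretin, transferrin, alpha-1-antitrypsin, the 3 fibrinogen chains, the alpha-1-microglobulin precursor and retinol-binding protein 4 are plasma proteins that the fetal and adult liver secretes. Their 10 genes (AFP, ALB, TTR, TF, SERPINA1, FGA, FGB, FGG, AMBP and RBP4) were followed here in cells of the Caco-2 line, which comes from a human colorectal adenocarcinoma and whose cells take on enterocyte features in culture. They were picked by symbol from the 69215 genes in the count tables, with their levels in all 15 libraries and their differences between the groups already known. Their values are therefore a description, given with their errors and without p-values. Of the 10 genes, 9 passed the filter on low counts, as did 12769 genes in all. TF did not pass.

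Cells were exposed to polysorbate 80 (PS80) in 5 libraries and to polysorbate 20 (PS20) in 5 libraries, and 5 libraries came from unexposed control cells. Each polysorbate was given at 0.05% for 24 h. Both are food emulsifiers built on the same polyoxyethylene sorbitan head, with an oleate tail in PS80 and a laurate tail in PS20. The series title asks how these emulsifiers impair the gut epithelial barrier. The labels name no separate cultures, so the replicate spread may be technical, and every p-value measures only the spread between these libraries.

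In the liver, genes of this kind are driven by a shared set of factors, among them HNF1, HNF4, FOXA and C/EBP proteins. AFP is the albumin of the fetus: it stands next to ALB in the genome and is shut down in the liver after birth. Cells of the fetal intestine and colon cancer lines share several of the same factors and can transcribe such genes too. The fibrinogen chains are assembled into 1 secreted clotting protein from 3 neighbouring genes that rise together in the acute-phase response. RBP4 carries retinol in the blood in a complex with TTR.

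The promoter sequences of the 5 members that were lower under both polysorbates are shown because these genes lie in 2 clusters on chromosome 4. In GRCh38 the deposited tables place ALB at chr4:73397114-73421482 and AFP at chr4:73431138-73456174, both on the plus strand. FGB lies at chr4:154563011-154572807 on the plus strand, FGA at chr4:154583128-154590745 and FGG at chr4:154604134-154612967 on the minus strand. Each line gives, 5′ to 3′ on the gene's strand, the 150 bases upstream of a start annotated by RefSeq on GRCh38.p14. Capitals mark the HNF1 core letters GTTAAT, the longer HNF1 site (GTTANT, a gap of NN, then TTAAC) and the C/EBP letters TTGCNNAA, each searched on both strands, where the longer site can overlap the core.
AFP, chr4:73436071-73436220: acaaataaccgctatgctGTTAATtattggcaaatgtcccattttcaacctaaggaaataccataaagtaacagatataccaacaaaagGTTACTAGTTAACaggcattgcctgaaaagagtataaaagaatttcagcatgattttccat
ALB, chr4:73404137-73404286: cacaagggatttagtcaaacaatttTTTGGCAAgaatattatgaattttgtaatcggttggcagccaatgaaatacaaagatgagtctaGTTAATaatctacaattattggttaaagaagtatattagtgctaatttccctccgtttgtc
FGA, chr4:154590743-154590892: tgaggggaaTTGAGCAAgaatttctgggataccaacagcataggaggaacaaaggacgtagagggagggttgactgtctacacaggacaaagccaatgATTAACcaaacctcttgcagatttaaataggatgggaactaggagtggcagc
FGB, chr4:154562861-154563010: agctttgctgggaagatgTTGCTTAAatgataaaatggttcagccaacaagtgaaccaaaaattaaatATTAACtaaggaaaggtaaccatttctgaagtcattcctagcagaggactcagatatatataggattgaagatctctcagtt
FGG, chr4:154612657-154612806: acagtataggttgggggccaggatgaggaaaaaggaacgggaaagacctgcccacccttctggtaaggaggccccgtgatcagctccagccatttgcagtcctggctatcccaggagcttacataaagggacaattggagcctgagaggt

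The RefSeq promoter table held 9 of the 10 genes, TTR not among them. The letters were counted in windows of 300 bases, 250 upstream and 50 downstream of a start, which are longer than the stretches shown. The 9 genes had 14 such windows, and a gene was counted if any of its windows held the letters. The HNF1 core letters were in a window of 5 of the 9 (AFP, ALB, FGA, FGB and SERPINA1), and 6.88% of all 35116 windows of that length held them. The longer site was in 30 windows (0.0854%), of which AFP's was 1. The C/EBP letters were in a window of 6 of the 9 (AFP, ALB, FGA, FGB, RBP4 and TF) and in 10.5% of all windows. AFP's match began at -221 from the start, outside the stretch shown. RBP4 had the C/EBP letters in 1 of its 3 windows and TF in 1 of 2, and SERPINA1 had the HNF1 core in 1 of 2. The counts of genes are thus not on the same footing as the shares of single windows. FGG had none of these letters in its window, although its level followed that of FGA. The motifs were chosen with the members' values known, and a match is only a description of the letters.

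The plasma protein genes were a small share of the transcripts. Together they took 0.122 to 0.173% of the counts of a PS80 library, 0.101 to 0.142% in PS20 and 0.170 to 0.309% in control, so the PS20 range lay below the control range and the PS80 range overlapped it slightly. The fibrinogen chains made up 53.8 to 61.3% of the members' counts in PS80, 45.2 to 59.6% in PS20 and 65.8 to 73.2% in control. Per length of transcript, in RPKM (the count scaled to the library total, or CPM, divided by the joined exon length in kilobases), RBP4 came first in PS80 cells (268 ± 18.4, SD, n = 5) and in PS20 cells (242 ± 15.8), and FGG came second (149 ± 29.1 in PS80 and 132 ± 25.7 in PS20) without overlap. In control cells FGG had 296 ± 109 RPKM and RBP4 247 ± 12.2 RPKM, and these ranges overlapped. The TTR level per length was 49.4 RPKM in PS80, 46.0 in PS20 and 49.7 in control. In control it stood below FGA (89.5 RPKM) and FGB (51.0 RPKM, overlapping with TTR), whereas under both polysorbates it ranked above FGA, with overlapping ranges, and above FGB.

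At the lower end, AFP, SERPINA1 and ALB had 12.2, 11.8 and 10.5 RPKM in PS80, and the 3 ranges overlapped from each gene to the next. In PS20 the order of these 3 was SERPINA1 (10.3 RPKM), ALB (8.64 RPKM) and AFP (7.30 RPKM), again with overlaps. In control it was AFP (26.0 RPKM), ALB (20.4 RPKM) and SERPINA1 (14.7 RPKM), likewise overlapping. AMBP, at 0.598 to 0.978 RPKM as group means, stood below all of these and above TF in every group. Of the 38 distinct exon lengths of SERPINA1, 26 recur in a copy annotated on a scaffold. None of the 6519 genes annotated on scaffolds had a count in any library. Whether reads were aligned to the scaffolds, and whether SERPINA1 reads were discarded as ambiguous, was not tested.

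**Figure D1:**
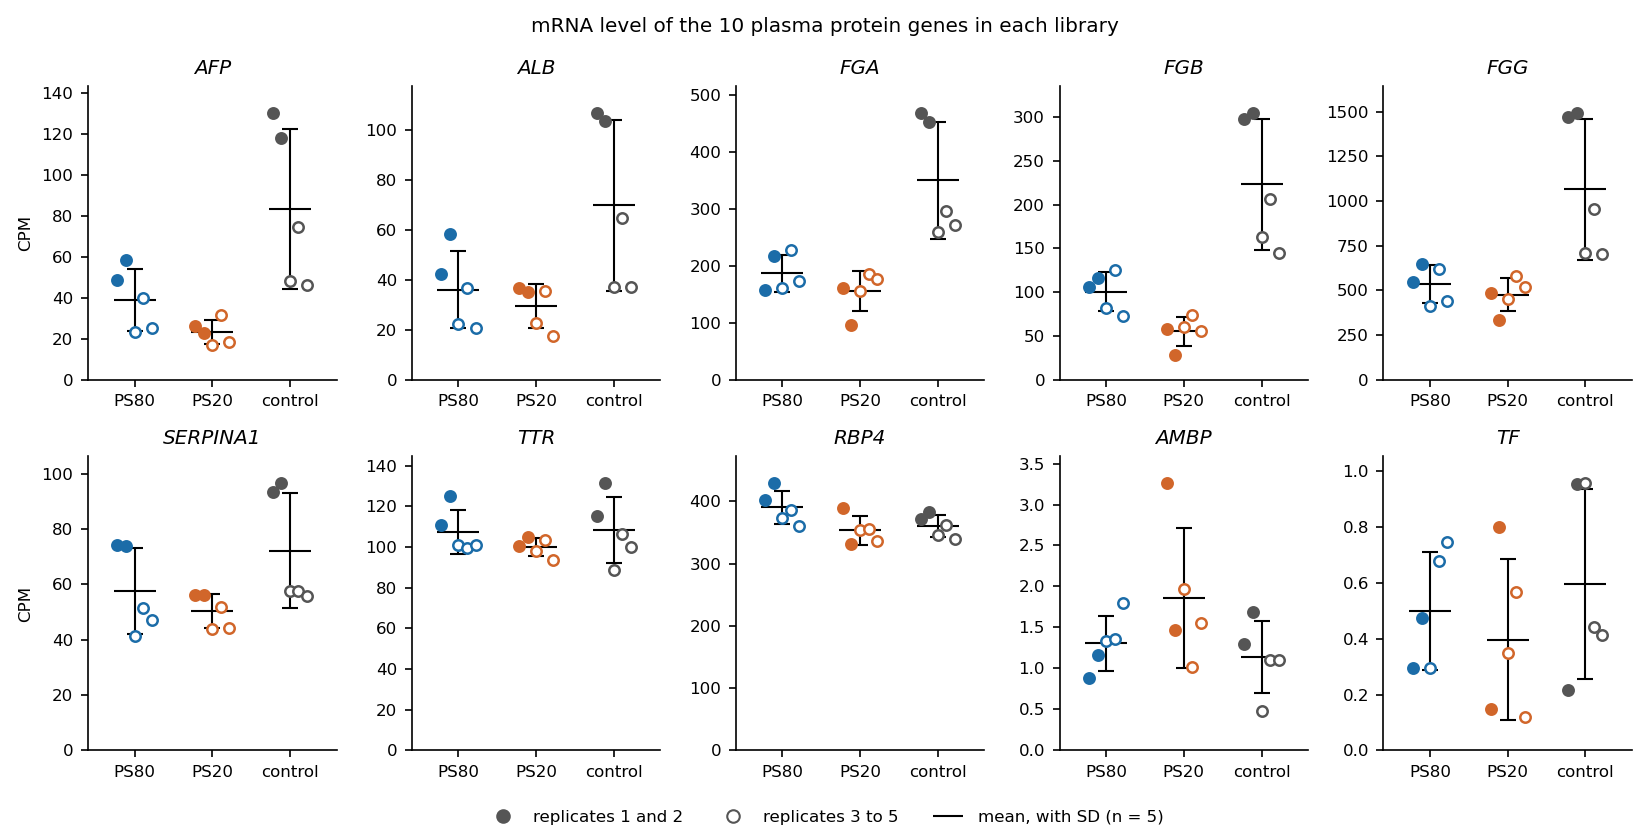
Level of each of the 10 genes in CPM (counts scaled to the library total, vertical axes starting at 0) in the PS80, PS20 and control libraries; points are libraries, filled for replicates 1 and 2 and open for replicates 3 to 5, and bars are the mean with SD (n = 5). The 3 fibrinogen genes lay lower in every PS80 and PS20 library than in any control library, whereas TTR, RBP4, AMBP and TF overlapped between all groups.

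The fetal and adult albumins were both lower after exposure, and AFP was the more so in PS20. AFP, the fetal carrier protein, had 48.5, 58.5, 23.5, 39.7 and 25.2 CPM in PS80 replicates 1 to 5, 26.2, 23.1, 17.04, 31.8 and 18.7 CPM in PS20, and 130.4, 118, 48.1, 74.4 and 46.1 CPM in control. Every PS20 library lay below every control library, while the 2 highest PS80 libraries, replicates 1 and 2, reached into the control range. The log2 fold change of AFP, from edgeR with its standard error, was -1.03 ± 0.26 for PS80 against control (95% interval -1.58 to -0.49) and -1.85 ± 0.28 for PS20 against control (-2.44 to -1.27). These are levels 2.05-fold and 3.62-fold lower than in control.

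ALB, the main carrier protein of adult plasma, had 42.4, 58.3, 22.3, 36.7 and 20.9 CPM in PS80, 36.9, 35.2, 22.8, 35.6 and 17.8 CPM in PS20, and 107, 104, 37.1, 64.9 and 37.3 CPM in control. All PS20 libraries were below the lowest control library, by a narrow margin, and the PS80 range overlapped the control range. Its log2 fold change was -0.89 ± 0.29 in PS80 against control (-1.49 to -0.29) and -1.26 ± 0.30 in PS20 against control (-1.89 to -0.63).

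The ratio of ALB to AFP counts within a library removes the depth and any change the 2 genes share. It was 0.874, 0.997, 0.950, 0.923 and 0.826 in PS80 replicates 1 to 5, 1.41, 1.53, 1.34, 1.12 and 0.949 in PS20, and 0.820, 0.878, 0.771, 0.873 and 0.810 in control. All 5 PS20 ratios were above all 5 control ratios, so AFP was lower relative to ALB there, and the PS80 ratios overlapped both.

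The 3 fibrinogen genes were lower in every exposed library than in any control library. FGA, which encodes the alpha chain, had 158, 217, 161, 228 and 173 CPM in PS80, 162, 96.5, 156, 186 and 178 CPM in PS20, and 469.6, 454, 260.3, 297 and 272 CPM in control. Its PS80 and PS20 ranges overlapped each other below a gap to control. The log2 fold change against control was -0.87 ± 0.16 in PS80 (-1.21 to -0.53) and -1.17 ± 0.17 in PS20 (-1.51 to -0.82).

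FGG, which encodes the gamma chain, was the most abundant of the 3, with 549, 648, 412, 622 and 444 CPM in PS80, 489, 332, 454, 579 and 522 CPM in PS20, and 1471, 1494, 709, 953 and 701 CPM in control. The highest exposed library, PS80 replicate 2, stood below the lowest control library. FGG differed from control by a log2 fold change of -0.96 ± 0.19 in PS80 (-1.35 to -0.58) and -1.16 ± 0.19 in PS20 (-1.55 to -0.77).

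FGB, the gene of the beta chain, had 106, 116, 82.6, 125 and 72.4 CPM in PS80, 58.1, 28.8, 60.8, 74.4 and 55.4 CPM in PS20, and 297, 305, 163, 206 and 145 CPM in control. Here the PS20 libraries were also below the PS80 libraries apart from a small overlap, between PS80 replicate 5 and PS20 replicate 4. The log2 fold change of FGB against control was -1.12 ± 0.20 in PS80 (-1.54 to -0.70) and -2.0 ± 0.21 in PS20 (-2.44 to -1.55), or levels 2.18-fold and 3.99-fold lower.

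The chains therefore kept their proportions only in part. The FGB to FGG count ratio was 0.193, 0.180, 0.200, 0.201 and 0.163 in PS80, 0.119, 0.0868, 0.134, 0.128 and 0.106 in PS20, and 0.202, 0.204, 0.229, 0.217 and 0.206 in control. The 3 groups did not overlap, with PS80 just under control and PS20 far under both. FGB per FGA was 0.538 on average in PS80, 0.352 in PS20 (0.299 to 0.400) and 0.631 in control (0.532 to 0.694), with PS20 below both others. FGA per FGG overlapped between all groups, with means of 0.354 in PS80, 0.325 in PS20 and 0.338 in control. These ratios are of counts, not of transcripts, and cover genes of unequal length.

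**Figure D2:**
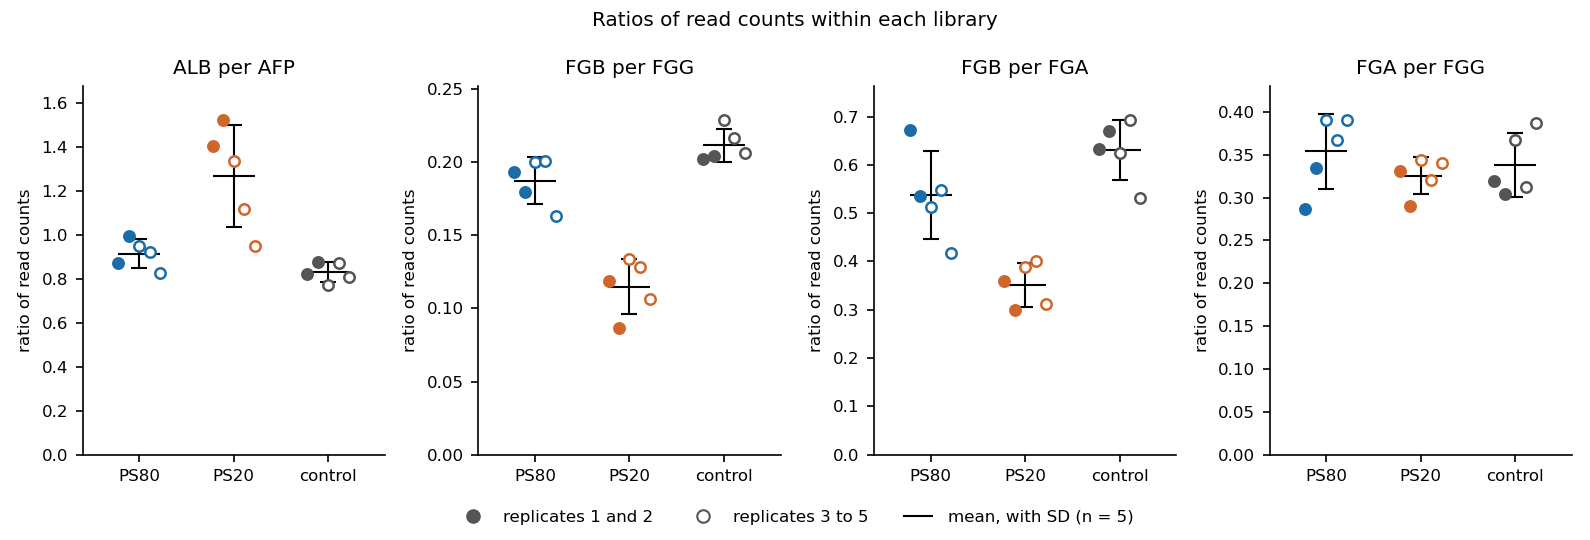
Ratio of the read counts of 2 members within each library (vertical axes, from 0) in the PS80, PS20 and control libraries, with replicates 1 and 2 filled, replicates 3 to 5 open, and the mean with SD (n = 5). ALB per AFP was higher in all PS20 libraries (0.949 to 1.53) than in control (0.771 to 0.878), FGB per FGG was lowest in PS20 (0.0868 to 0.134), and FGA per FGG overlapped in all 3 groups.

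The remaining secreted proteins differed less. SERPINA1, the gene of the protease inhibitor alpha-1-antitrypsin, had 74.4, 73.8, 41.4, 51.6 and 47.1 CPM in PS80, 56.3, 56.3, 43.9, 51.8 and 44.4 CPM in PS20, and 93.3, 96.6, 57.6, 57.8 and 55.8 CPM in control. Both exposed groups overlapped control, PS20 only through its replicates 1 and 2. The log2 fold change was -0.28 ± 0.17 in PS80 (-0.63 to 0.07) and -0.52 ± 0.17 in PS20 (-0.88 to -0.16).

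RBP4, the retinol carrier, had 403, 429, 374, 387 and 360.1 CPM in PS80, 390.0, 332, 353, 356 and 336 CPM in PS20, and 372, 383, 345, 362 and 340.2 CPM in control. All 3 ranges overlapped. The log2 fold change against control was 0.14 ± 0.06 in PS80 (0.03 to 0.26) and -0.03 ± 0.06 in PS20 (-0.14 to 0.09).

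TTR, RBP4's partner in plasma and a carrier of thyroid hormone, ranged from 99.6 to 125 CPM in PS80 (median 101), from 93.7 to 105 CPM in PS20 (median 100.3) and from 88.5 to 131 CPM in control (median 106). Its log2 fold change was 0.02 ± 0.08 in PS80 and -0.12 ± 0.09 in PS20, and both intervals included 0. The TTR to RBP4 count ratio averaged 0.275 in PS80, 0.284 in PS20 and 0.299 in control, and the groups overlapped.

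AMBP and TF were close to the detection limit. AMBP, which encodes the precursor of alpha-1-microglobulin and bikunin, had 9 to 49 counts in PS80 libraries, 9 to 34 in PS20 and 2 to 16 in control. Its log2 fold change was 0.18 ± 0.31 in PS80 (-0.46 to 0.83) and 0.62 ± 0.32 in PS20 (-0.04 to 1.27). Both intervals included 0, and without PS20 replicate 4 AMBP was called higher in PS20 (0.77). TF, the iron carrier transferrin, had 2 to 20 counts in PS80 libraries, 1 to 6 in PS20 and 1 to 9 in control, or 0.498, 0.397 and 0.596 CPM on average. TF therefore has no fitted change.

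In the fit across all genes, 5 of the 9 members were called lower (adjusted p under 0.05) in PS80 against control, namely AFP, ALB, FGA, FGB and FGG, and none was called higher, where 33.4% of all tested genes were called, 16.0% lower and 17.4% higher. In PS20 against control the same 5 and SERPINA1 were called lower and none higher, against a background of 48.3% called, 23.9% lower and 24.4% higher. The CPM ranges of 3 members in PS80 (FGA, FGB and FGG) and 5 in PS20 (AFP, ALB, FGA, FGB and FGG) lay below control without overlap, as they did for 10.9% and 16.4% of all genes. Since the genes were chosen on these contrasts, nothing is read from those counts. The median log2 fold change of the 9 members was -0.87 in PS80 and -1.16 in PS20, against 0.00 and 0.01 for all genes tested. In bulk RNA, fewer cells that express a gene and less RNA per cell cannot be told apart.

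Directly compared, some transcripts were higher in PS80 cells than in PS20 cells. The log2 fold change of PS80 against PS20 was 0.82 ± 0.28 for AFP (0.23 to 1.41), 0.87 ± 0.21 for FGB (0.44 to 1.31) and 0.17 ± 0.06 for RBP4 (0.05 to 0.28). Those 3 of 9 members were called higher and none lower, beside 18.2% and 17.3% of all genes (35.5% together). For the other members the interval of the difference included 0, as with ALB at 0.37 (-0.25 to 1.0), FGA at 0.30 (-0.05 to 0.64), FGG at 0.20 (-0.19 to 0.59), SERPINA1 at 0.24 (-0.11 to 0.59), TTR at 0.13 (-0.04 to 0.31) and AMBP at -0.43 (-1.0 to 0.14). These intervals do not show that the oleate and the laurate ester act alike on those genes. Both comparisons with control used the same 5 control libraries.

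**Figure D3:**
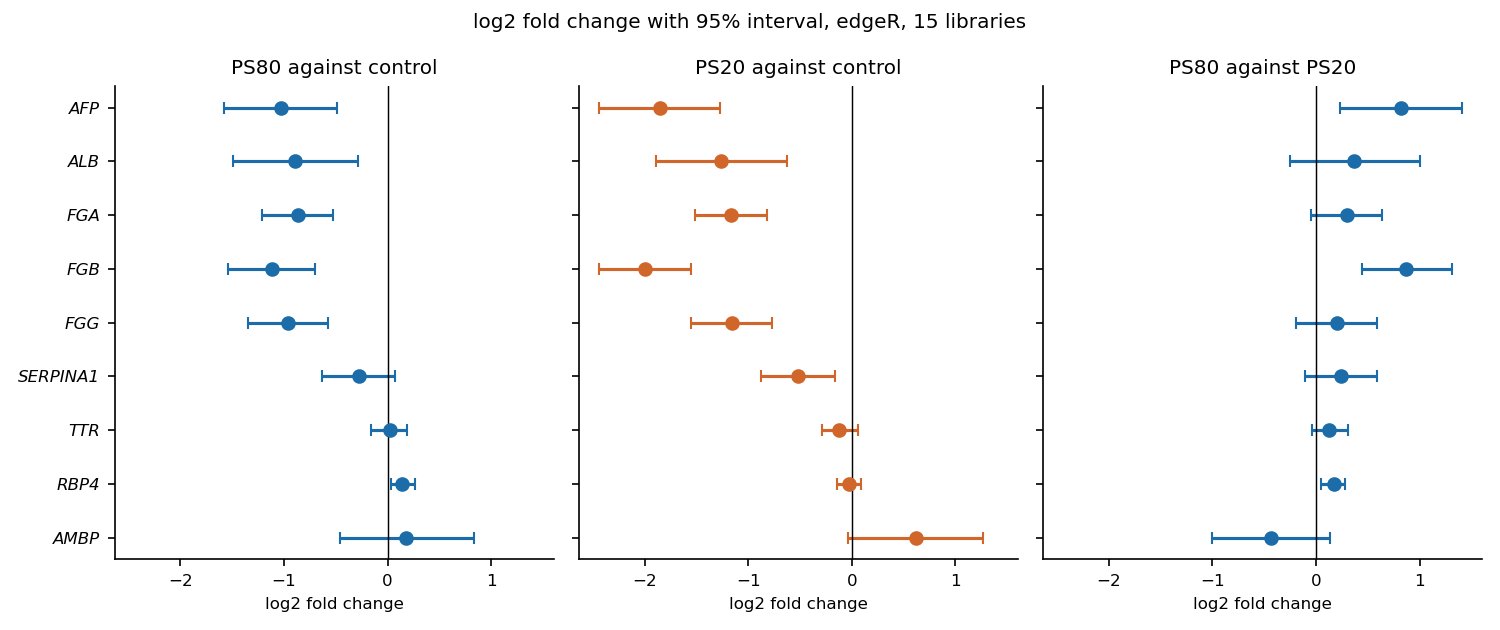
log2 fold change with its 95% interval (horizontal axes) of the 9 tested members in PS80 against control, PS20 against control and PS80 against PS20. In PS20 against control AFP (-1.85) and FGB (-2.0) stood furthest from 0, and in PS80 against PS20 the intervals of AFP, FGB and RBP4 were above 0.

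Several members also differed between libraries of 1 group, along the replicate numbers. Replicates 1 and 2 were above replicates 3, 4 and 5 without overlap in control for all members but TF. For AMBP this rested on 2 to 16 counts per library. The share of all genes with such a split was not counted, so nothing is read from the number of members. The labels do not say what a replicate number stands for. The ratio of the mean CPM in replicates 1 and 2 to that in replicates 3 to 5 was 1.82 for AFP in PS80, 1.09 in PS20 and 2.21 in control. For ALB it was 1.89 in PS80, 1.42 in PS20 and 2.27 in control, and for SERPINA1 1.59, 1.21 and 1.66 in the same order.

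For the fibrinogen genes the sets stood apart in control and overlapped in both exposed groups, and whether that contrast exceeds the replicate error was not tested. FGG had a ratio of 1.21 in PS80, 0.791 in PS20 and 1.88 in control, FGB 1.19, 0.684 and 1.76, and FGA 0.998, 0.746 and 1.67. TTR had 1.17, 1.04 and 1.25, and RBP4 1.11, 1.04 and 1.08, so their sets differed little. Over all groups in a fit with group as a term, the log2 fold change of replicates 1 and 2 over replicates 3 to 5 was 0.91 ± 0.13 for ALB, 0.80 ± 0.13 for AFP and 0.58 ± 0.06 for SERPINA1. AFP, ALB, SERPINA1, TTR and RBP4 (5 of 9 members) were called higher in replicates 1 and 2, beside 10.3% of all genes, and none lower, beside 8.74%. In PS20 alone none of these 5 calls held. In control alone TTR and RBP4 lost the call and FGA (0.72), FGB (0.79) and FGG (0.89) gained it. The RBP4 call also ended in PS80 alone, without the filter, and without any 1 of PS80 replicates 2, 3 and 5, PS20 replicate 1 and control replicates 2 and 5. FGG gained a call without PS80 replicate 4 (0.38) or PS20 replicate 2 (0.46) or 4 (0.37), and FGA (0.29) and FGB (0.43) without PS20 replicate 2.

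**Figure D4:**
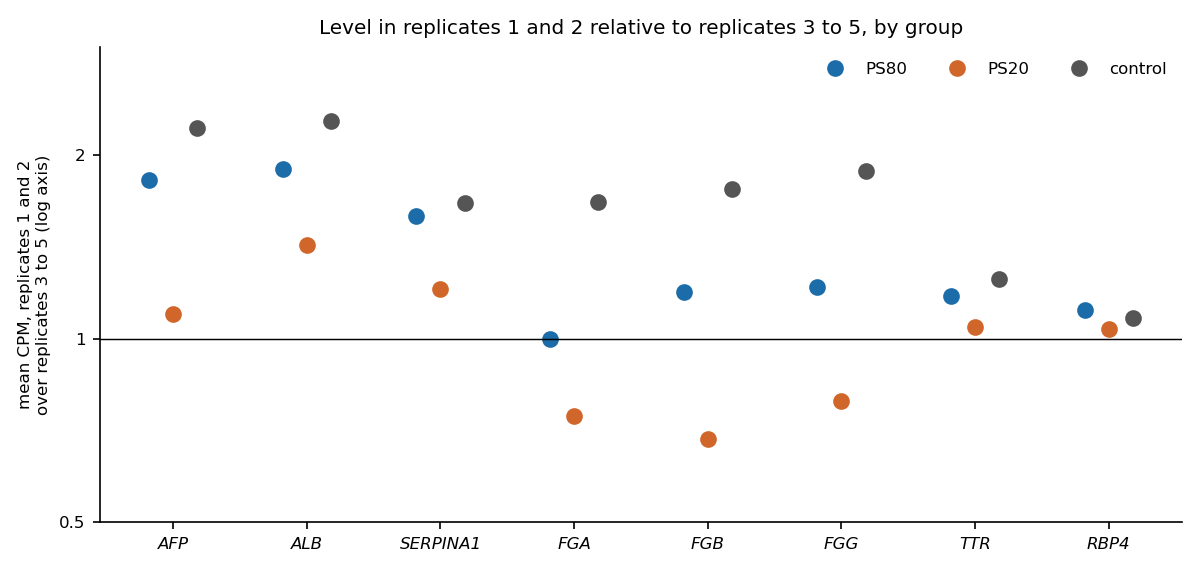
Mean CPM in replicates 1 and 2 divided by mean CPM in replicates 3 to 5 (vertical log axis, line at 1) for 8 members in the PS80, PS20 and control groups. Control ratios reached 2.27 (ALB) and 2.21 (AFP), while the PS20 ratios of FGA, FGB and FGG lay under 1.

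For AFP, ALB, SERPINA1 and the fibrinogen genes the values against control were further from 0 in replicates 1 and 2 than in replicates 3 to 5, and they held their direction in both sets. Their standard errors were 0.10 to 0.19 in replicates 1 and 2 and 0.08 to 0.20 in replicates 3 to 5. In PS80 the sets lay within these errors of each other for AFP, ALB and SERPINA1. Whether the sets differed in any of the 6 genes was not tested. Within replicates 1 and 2, the log2 fold change against control was -1.15 in PS80 and -2.31 in PS20 for AFP, -0.99 and -1.53 for ALB, -1.39 and -2.79 for FGB, -1.25 and -1.82 for FGA, and -1.26 and -1.84 for FGG. Within replicates 3 to 5 it was -1.0 in PS80 and -1.43 in PS20 for AFP, -0.92 and -0.97 for ALB, -0.92 and -1.46 for FGB, -0.56 and -0.69 for FGA, and -0.68 and -0.62 for FGG. SERPINA1 had -0.32 and -0.74 in replicates 1 and 2 and -0.27 and -0.30 in replicates 3 to 5. AMBP was not called in either set, and in PS80 against control it had -0.47 in replicates 1 and 2 and 0.69 in replicates 3 to 5. The difference between the polysorbates was also uneven. In PS80 against PS20, AFP was 1.16 within replicates 1 and 2 and 0.43, not called, within replicates 3 to 5, and FGB was 1.40 and 0.54, called in both. ALB (0.53), SERPINA1 (0.42), FGA (0.58) and FGG (0.58) were called within replicates 1 and 2 alone, and had 0.05, 0.03, 0.14 and -0.06, not called, within replicates 3 to 5. The same 4 genes were also called without the filter on low counts.

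Some calls turned on single libraries. ALB in PS80 against control was not called without control replicate 1 (-0.73), control replicate 2 (-0.69) or PS80 replicate 5 (-0.73), all in fits that do not pair the libraries. ALB was lower in PS80 than in control in all 5 same-numbered pairs, and it was called in the fit blocked on the replicate number (-0.89 ± 0.09, against a standard error of 0.29 without the block). The call of SERPINA1 in PS20 against control ended without control replicate 1 (-0.43) or control replicate 2 (-0.37), and was kept in the blocked fit (-0.47 ± 0.08). AFP in PS80 against PS20 lost its call without PS80 replicate 1 (0.75) or 2 (0.59) or PS20 replicate 2 (0.83), 3 (0.70) or 5 (0.76), and under DESeq2. These fits did not pair the libraries either. AFP was called in that comparison in the blocked fit (0.71 ± 0.12) and with a set term (0.72). RBP4 in that comparison lost it without PS80 replicate 2 or PS20 replicate 2 or 5. In the blocked fit SERPINA1 (-0.28) and RBP4 (0.14) were also called in PS80 against control, as they were with a set term (-0.29 and 0.14). SERPINA1 was called there too without the filter (-0.25) and within replicates 1 and 2 (-0.32) or replicates 3 to 5 (-0.27) alone. It was not called in the other alternatives. RBP4 gained the call in PS80 against control also without PS80 replicate 3 (0.16) or 5 (0.17) or control replicate 2 (0.17). The 5 members called lower in PS20 apart from SERPINA1 remained called there under every alternative run.

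Other plasma protein genes of the liver did not share a direction. Of 74 listed genes 29 passed the filter. In PS80 against control 3 rose, 4 fell and 22 were not called (median log2 fold change 0.00). In PS20 against control 9 rose, 8 fell and 12 were not called (median 0.12), and in PS80 against PS20 3 were higher and 4 lower. With the replicate block, 5 rose in PS80 against control.

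HPX, the heme-binding hemopexin, fell to 8.30 ± 1.79 CPM in PS80 and 6.98 ± 0.953 CPM in PS20, against 12.8 ± 3.38 CPM in control (SD, n = 5 each). Its log2 fold change was -0.59 in PS80 (adjusted p = 0.00794) and -0.90 in PS20 (adjusted p = 0.000210). SERPING1, the inhibitor of complement C1, rose by 0.84 in PS80 (adjusted p = 0.000233) and 0.95 in PS20 (adjusted p = 2.83e-05) on the log2 scale. F12, coagulation factor XII, rose by 0.73 (adjusted p = 3.62e-05) and 0.58 (adjusted p = 0.000225). SERPINF1, which encodes pigment epithelium-derived factor, fell by 0.53 in PS80 (adjusted p = 0.00135), and SERPINA4, the inhibitor of tissue kallikrein, fell by 0.65 in PS20 (adjusted p = 0.00191).

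AHSG, the fetal serum protein fetuin-A, moved opposite to AFP in PS20. It averaged 458 ± 126 CPM in PS80, 674 ± 175 CPM in PS20 and 434 ± 163 CPM in control, with a log2 fold change of 0.64 in PS20 against control (adjusted p = 0.0173) and 0.11 in PS80 (adjusted p = 0.725). ORM1, an acute-phase carrier with a near-identical copy in ORM2 that makes its count uncertain, had 1.02 in PS20 (adjusted p = 0.000925). Between the polysorbates, ORM1 (-0.65, adjusted p = 0.0191), SERPINF1 (-0.39, adjusted p = 0.0106) and complement C5 (-0.58, adjusted p = 0.00309) were lower in PS80, and PROS1, the anticoagulant protein S, was higher (0.33, adjusted p = 0.00317). VTN, the adhesion protein vitronectin, was the most abundant of the other plasma protein genes named here. It had 937 ± 112 CPM in PS80, 970.3 ± 37.4 CPM in PS20 and 914 ± 79.6 CPM in control, and was not called in any of the 3 comparisons.

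Wide changes were also seen in genes of this list under 5 CPM on average, and CP and INHBE were singled out after their values were seen. CP, the copper carrier ceruloplasmin, had -2.14 in PS20 (adjusted p = 9.53e-05). INHBE, an inhibin beta subunit, had 6.46 CPM in PS20 and 0.721 CPM in control, a log2 fold change of 3.09 (adjusted p = 2.24e-07).

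**Figure D5:**
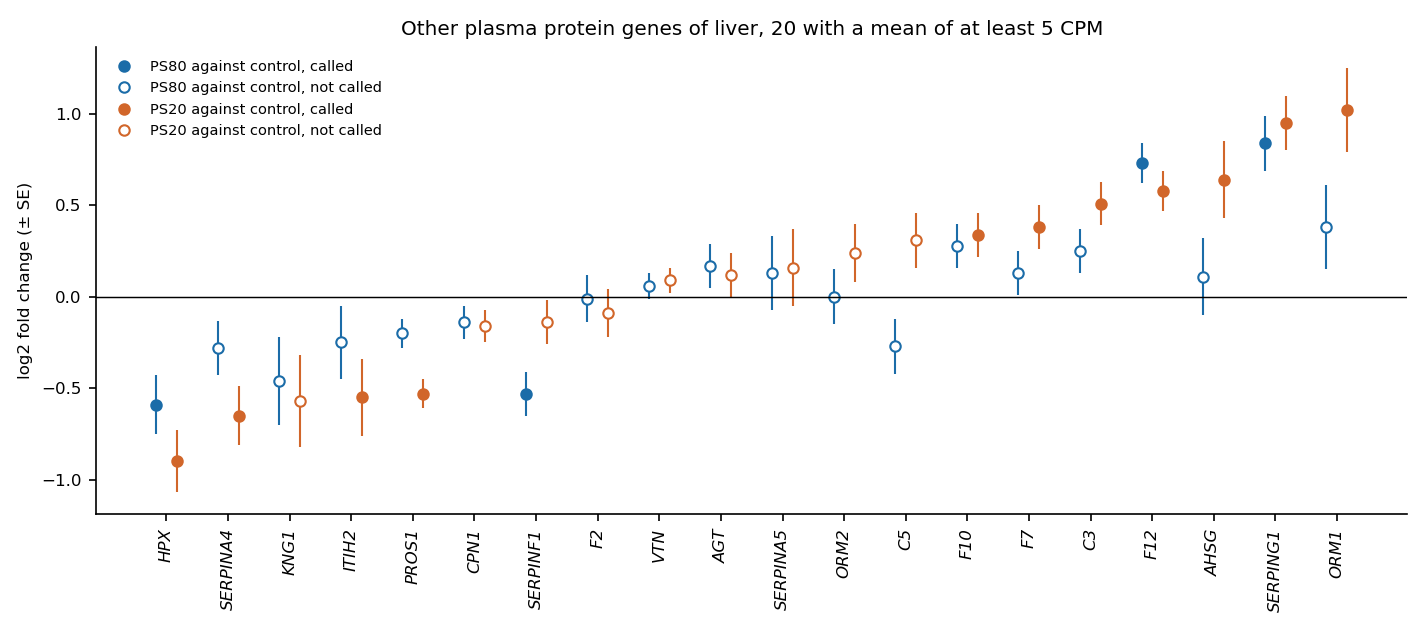
log2 fold change with its standard error (vertical axis) of the 20 other plasma protein genes that were tested and averaged at least 5 CPM, in PS80 against control and PS20 against control, filled where called and open where not. Genes stand on both sides of 0, from HPX (-0.59 in PS80 and -0.90 in PS20) to ORM1 (1.02 in PS20).

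Between the replicate sets 14 of these 29 genes were higher in replicates 1 and 2 and 1 was lower, with a median of 0.33 on the log2 scale beside 0.00 for all genes. AHSG had 664 ± 144 CPM in replicates 1 and 2 of all groups and 427 ± 143 CPM in replicates 3 to 5, and AGT, the precursor of angiotensin, 237 ± 27.1 CPM and 187 ± 20.2 CPM. The set difference of AFP and ALB was thus seen in other genes of this list too. In control alone 8 of the 29 were called higher in replicates 1 and 2, and in PS20 alone none was, by edgeR, where 150 of all genes were called.

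Oncofetal genes, those active in the fetus and again in tumours, were listed beside AFP. Of 9 tested, 1 rose and 3 fell in PS80, 0 rose and 5 fell in PS20, and 6 were higher and 1 lower in PS80 against PS20. IGF2, a fetal growth factor, fell to 927 ± 128 CPM in PS80 and 604 ± 61.1 CPM in PS20, against 1118 ± 66.7 CPM in control, with log2 fold changes of -0.24 (adjusted p = 0.0218) and -0.89 (adjusted p = 1.86e-08). PEG10 (-0.20) fell and IGF2BP2 (0.39) rose in PS80, and IGF2BP1 (-0.44) and SALL4 (-0.57) fell in PS20. PS80 exceeded PS20 by 0.64 for IGF2 (adjusted p = 3.45e-06), by 0.39 for the RNA-binding protein gene IGF2BP1 (adjusted p = 3.01e-06) and by 0.37 for SALL4, a stem cell transcription factor (adjusted p = 0.000746). GPC3, a cell surface proteoglycan used as a marker of liver cancer along with AFP, was not called in PS80 (-0.11, adjusted p = 0.559) or PS20 (-0.05, adjusted p = 0.769).

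The transcription factors that drive hepatic genes changed in both directions, 2 up and 3 down of 21 in PS80 and 5 up and 4 down in PS20. HNF4A averaged 595 ± 34.7 CPM in PS80, 609 ± 33.5 CPM in PS20 and 629 ± 49.3 CPM in control, and was not called. FOXA1 fell by 0.37 in PS80 (adjusted p = 0.00135) and 0.47 in PS20 (adjusted p = 6.06e-05). CEBPA (0.66, adjusted p = 7.94e-06) and CEBPB (1.35, adjusted p = 1.97e-08) rose in PS20, and CREB3L3, a liver and gut factor held in the endoplasmic reticulum membrane, rose by 1.22 in PS80 (adjusted p = 0.00111), where the T-box factor TBX3 (-0.38) fell. CEBPB was 0.99 lower in PS80 than in PS20 on the log2 scale (adjusted p = 1.72e-06). Of 9 tested genes of acute-phase signalling, 1 rose and 1 fell in PS80, and 4 rose and 0 fell in PS20, among them the interleukin-6 receptor gene IL6R (0.79, adjusted p = 0.000190). The interleukin-1 receptor gene IL1R1 fell in PS80 (-0.23) and rose in PS20 (0.27).

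Genes that handle the members' ligands and export their proteins also moved both ways. Of 15 retinoid genes, 2 rose and 6 fell under each polysorbate. RBP2, the intestinal retinol carrier within the cell, fell by 0.37 in PS80 (adjusted p = 0.00244) and 0.45 in PS20 (adjusted p = 0.000282), and DHRS3, a retinal reductase, fell by 0.78 in PS80 (adjusted p = 1.73e-06). The retinoic acid carrier CRABP2 rose in PS80 (0.45), and in PS20 the retinal dehydrogenase ALDH1A1 rose (0.43) and the receptor RARG fell (-0.61). Of 5 genes of transferrin uptake, 2 rose and 2 fell in PS80 and 1 rose and 3 fell in PS20, and the receptor gene TFRC rose by 0.29 in PS80 (adjusted p = 0.00105). The iron transporter SLC11A2 fell in PS80 (-0.27) and PS20 (-0.46), as did HFE (-0.34 and -0.36), and the ferrireductase STEAP3 fell in PS20 (-0.54). Of 21 genes of cargo export from the endoplasmic reticulum, 2 rose and 7 fell in PS80, and 6 rose and 9 fell in PS20. The lectin cargo receptor LMAN1 rose by 0.58 in PS20 (adjusted p = 8.12e-07) and the cargo receptor SURF4 fell by 0.30 (adjusted p = 1.06e-05). In PS80 the coat protein SEC31A (-0.29), MIA2 (-0.29) and the translocon subunit SEC61A1 (-0.32) fell, and in PS20 MIA3 (0.44) rose.

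The genomic neighbours of the 2 clusters were measured as well. ANKRD17, the nearest tested gene on 1 side of ALB and AFP, had log2 fold changes of 0.03 in PS80 and -0.06 in PS20, and RASSF6, on the other side, 0.07 and 0.40, and neither was called. PLRG1, 12.6 kb from FGB, had -0.15 in PS80 and -0.17 in PS20 and was not called. Of 39 neighbours within 250 kb of a member, 21 were tested. DSG2, SLCO2A1 and ZNF618 rose and TRAPPC8, CDV3, SRPRB and KIF12 fell in PS80 (3 and 4). DSG2, SLCO2A1, ZNF618 and ORM1 rose and CDV3, TOPBP1, SERPINA4, KIF12, MYOF and CEP55 fell in PS20 (4 and 6). In PS80 against PS20, 3 were higher (B4GALT6, TOPBP1 and MYOF) and 1 lower (ORM1). DSG2, a desmosomal cadherin 8.001 kb from TTR, rose by 0.61 in PS80 (adjusted p = 1.29e-07) and 0.62 in PS20 (adjusted p = 1.45e-08) while TTR was not called.

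With the 9 members left out of the ranking, the tested genes whose log2 CPM ran most like FGG over the 15 libraries were SI (Pearson r = 0.956), PDGFRB (0.950), TNS1 (0.944), APOH (0.935) and RBP2 (0.935). For FGA they were TNS1 (0.964), SULT2A1 (0.957), SI (0.955), BLTP3B (0.950) and GALNT11 (0.949), and for RBP4 they were NYNRIN (0.926), LRP4 (0.920), GRAMD4 (0.918), MYO18A (0.903) and RNF123 (0.901). These libraries share the groups and the replicate sets, so the values only rank likeness. SI, the brush border enzyme sucrase-isomaltase, averaged 4.94 ± 1.12 CPM in PS80, 2.92 ± 0.841 CPM in PS20 and 20.6 ± 9.61 CPM in control, log2 fold changes of -2.0 (adjusted p = 3.63e-06) and -2.83 (adjusted p = 4.86e-08).

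Markers placed the cells as epithelial with some enterocyte genes. VIL1 (736 CPM on average), CDX2 (226 CPM) and EPCAM (981 CPM) were high, while KRT20 had 0 counts and FABP2 and CDX1 at most 1 count in a library. The 20 enterocyte markers summed to 9031 to 9458 CPM in PS80, 7239 to 7802 CPM in PS20 and 8802 to 10312 CPM in control. Of the 14 tested, 2 rose and 3 fell in PS80 and 4 rose and 6 fell in PS20, among them CDX2 (0.38) and DPP4 (0.31) in PS80 and LCT (-2.35) and KRT8 (-0.73) in PS20. The 21 hepatocyte metabolic markers summed to 247 to 331 CPM in PS80, 293 to 386 CPM in PS20 and 208 to 314 CPM in control, with TDO2, CYP3A4 and SLCO1B3 at 0 in all libraries. Of the 6 tested, 1 rose and 0 fell in PS80 and 1 rose and 2 fell in PS20, namely ASS1 (0.40 in PS80 and 0.80 in PS20), with SLC10A1 (-1.27) among those that fell, and 5 were higher in replicates 1 and 2. The 16 markers of other cell types summed to 186 to 231 CPM in PS80, 180.1 to 199 CPM in PS20 and 214 to 227 CPM in control, with HBB at 0 and PTPRC at 1 count at most. Of these, 2 rose and 2 fell in PS80 and 1 rose and 2 fell in PS20, of 7 tested, among them PDGFRA (-0.36 in PS80 and -1.04 in PS20), PDGFRB (-0.85 and -1.01), PECAM1 (0.56 in PS80) and CD14 (0.49 in PS20). The part of these markers in the members' differences was not tested.

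Depth ran from 6769409 to 42271053 counts in PS80 libraries, from 6749086 to 17251564 in PS20 and from 4183096 to 13616301 in control. PS80 replicates 1, 3, 4 and 5 were counted with a later version of the counting program than the other 11 libraries, so for PS80 an effect of that version cannot be told apart from the exposure there. Replicate 2 of PS80 was counted with the earlier version. It lay above all other PS80 libraries for AFP (58.5 CPM), ALB (58.3), TTR (125), FGG (648) and RBP4 (429). For FGA (217 CPM), FGB (116), SERPINA1 (73.8), AMBP and TF it lay within their range. Whether the version has a part in this was not tested.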

How the data were processed

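The deposited tables held whole-number counts of reads per gene, 1 table per library and not normalized. The authors used featureCounts 2.0.0 (11 libraries) or 2.0.3 (4 PS80 libraries), GENCODE release 42, a minimum mapping quality of 10 and no option for strand or read pairs, all per the file headers, so overlapping antisense reads cannot be separated. Trimming with cutadapt and alignment with STAR 2.7.9a to GRCh38 are per the submitters' processing notes. Libraries were polyadenylated RNA, per the labels' protocols.

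From the counts, CPM were computed as counts scaled to the library total, and RPKM as CPM per kilobase of the gene's joined exons (for TF 26038 bases, which lowers its value). Group differences were fitted over all 15 libraries with the quasi-likelihood test of edgeR 4.0.16 (limma 3.58.1, R 4.3.3) with TMM scaling, after keeping genes with enough counts (edgeR's filter, minimum count 10 and total 15, which came to 1.13 CPM in 5 libraries). P-values were adjusted by Benjamini and Hochberg over 12769 genes and called at 0.05. Intervals are 95% from the fit. The replicate sets were compared in a fit with group as a term. The scripts were tested on simulated data. Summaries used Python 3.11.15.

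The members, the other gene lists, the motifs and the replicate sets were chosen with earlier results of these data known. Genes named were all members, the called plasma protein genes of at least 5 CPM with the largest changes (6 per comparison), the 3 called genes with the smallest p of each other list, the called neighbours, and the 5 genes of most like pattern for the 3 most abundant members. HNF4A, GPC3, VTN, AGT, the uncalled neighbours and the marker genes were added for context. Some genes of the lists are not reported here.

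Pairing by replicate number was checked as the correlation of same-numbered libraries' deviations from their group means: 0.102 to 0.304 for PS80 and control, -0.0264 to 0.248 for PS20 and control, and 0.0741 to 0.290 for PS80 and PS20. Only in the first was every pair over 0.1. Different-numbered libraries of PS80 and control ran from -0.241 to 0.215, the latter for PS80 replicate 5 and control replicate 4. Some of them thus correlated as much as same-numbered ones. The values therefore do not settle whether the numbers pair. The main fits paired no libraries, and the block on the replicate number was run only as an alternative. Alternatives were DESeq2 1.42.0, other scaling, no filter, a set term, the block, each set alone and leaving out each library.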

Additional observations from a re-analysis of the deposited data

How the results depend on the processing

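No member's log2 fold change reversed under an alternative where it was called. Of 675 alternative values 655 stayed within 1 SD of the replicate spread and 20 moved, mostly the fibrinogen genes and AMBP in 1 replicate set. Of all genes, with replicates 1 and 2 alone 2078 were called in PS80 against control, 3142 in PS20 against control and 1464 in PS80 against PS20, where fewer libraries enter. In replicates 1-2 against replicates 3-5, 1107 were called in PS80 alone, 150 in PS20 alone and 523 in control alone. Leaving out 1 library gave 3569 to 4170, 5584 to 6059, 3835 to 4412 and 1802 to 2616 calls for these 4 comparisons.

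For the other plasma protein genes, those higher in PS80 against control were 6 with a set term, 7 without a filter, 5 with the replicate block and 2 to 5 without 1 library (5 without control replicate 2), and those lower were 9 without a filter and 3 to 5 without 1 library. In PS20 against control 13 were lower without a filter (7 to 9 without 1 library) and 5 higher with replicates 1 and 2 alone (7 to 9 without 1 library). In PS80 against PS20 the lower ones were 7 with a set term or the block, 2 with replicates 1 and 2 alone, 9 with replicates 3 to 5 alone and 3 to 6 without 1 library, and the higher ones were 5 without a filter or with the block, 1 with replicates 1 and 2 alone and 3 to 4 without 1 library. The cause of these moves was not tested, except that unfiltered fits test more genes.

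With the replicate block in PS80 against PS20, where same-numbered libraries correlated at 0.0741 to 0.290, ALB (0.27) and SERPINA1 (0.19) were also called. Only the comparison of replicate sets could not be paired, because the replicate number itself defines the sets. Depth limits AMBP and TF, at 2 to 49 and 1 to 20 counts per library. Whether the scaffold copy of SERPINA1 affects its count was not tested.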
